A study of Mus musculus with 39 samples.

Results

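T247 against control at the 4-cell stage compared mouse embryos that had met an inhibitor of histone deacetylases (HDACs) as zygotes with embryos that had not. The comparison was made on 6 of the 39 arrays, the 3 arrays of T247-treated and the 3 arrays of untreated 4-cell embryos. It covered all genes that passed a detection filter. The genes that differed were then placed by their course over the 8 untreated stages of the series. All embryos came from in vitro fertilization of B6D2F1 oocytes with ICR sperm. Treated zygotes were cultured with 10 µM T247 for 6 h, from 4 h post-insemination (hpi), and were then returned to the medium without inhibitor that the control embryos had been in throughout. Both groups were collected at 48 hpi, and each array held RNA pooled from 100 embryos. The 8 untreated stages, with 3 arrays each, were GV and MII oocytes, 1-cell embryos (12 hpi), 2-cell embryos (24 hpi), 4-cell embryos, 8-cell embryos, morulae and blastocysts. T247-treated embryos were also measured at the 1-cell and 2-cell stages, on 3 arrays each. So were embryos given a second HDAC inhibitor, MGCD0103, at 10 µM for 6 h from 4 hpi. The 1-cell and 2-cell arrays of all treatments entered the detection filter, the normalization and the shared estimate of the spread.

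HDACs remove acetyl groups from lysines of histones and of other proteins, and acetylated histones are found at active promoters and enhancers. HDAC3, the enzyme that T247 is given to inhibit selectively, works within corepressor complexes. In the mouse embryo, transcription of the zygotic genome begins weakly in the 1-cell embryo (minor zygotic gene activation, ZGA) and strongly in the 2-cell embryo (major ZGA), part of the genes switched on there are silenced again soon after, maternal transcripts are cleared, and a further set of genes rises from the 4-cell stage to the morula, when cells first adhere, polarize and take on fates.

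At the 4-cell stage, 2838 of 15992 tested genes (17.7%) were differentially expressed genes (DEGs) after T247, 1806 up (11.3%) and 1032 down (6.45%). Genes counted as DEGs where the log2 fold change (LFC, T247 minus control) reached 1 in either direction and limma's adjusted p was under 0.05. Gata2, Pth2, Plagl1, Insrr and Tsga8 were among the largest rises, and Igbp1, Vangl1, Cr1l, Smpdl3a and Cldn4 among the largest falls. Among the rises were 10 of 21 tested genes of the transient 2-cell programme and 10 of 27 of the class I histocompatibility genes. Among the falls were Pou5f1, Tbx3, Prdm14 and Gata6, regulators of pluripotency and of the first lineages. The LFC ran from -4.65 to 4.69, and 337 DEGs up and 95 down reached an LFC of 2 in size. Of the DEGs up, 1749 had all 3 T247 arrays above all 3 control arrays, and of the DEGs down, 990 had all 3 below. Little overlap follows from thresholds that chose these genes for a difference, and these counts are no separate support.

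**Figure D1:**
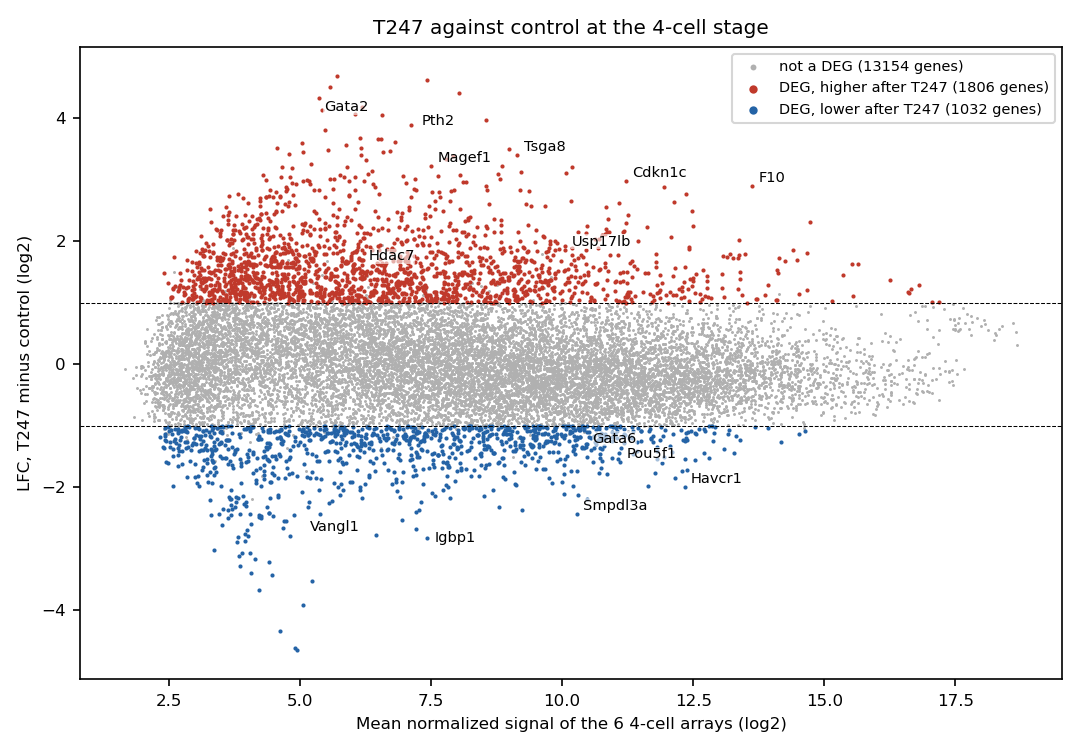
LFC of T247 against control (vertical axis, log2) against the mean normalized signal of the 6 arrays of the 4-cell stage (horizontal axis, log2), with 1 point for each of the 15992 tested genes and dashed lines at an LFC of 1 in size. The 1806 DEGs up lie above the upper line, densest at low and middle signals, and the 1032 DEGs down below the lower one.

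The split between directions depended on how the arrays were scaled. Under the smooth quantile normalization of the study's methods, 63.6% of the DEGs were up and the median LFC of all genes was -0.02. Scaling to the 75th percentile of all probes gave 1483 up and 1515 down (49.5% up) with a median LFC of -0.15, scaling to the 75th percentile of the tested genes gave 2290 up and 720 down (76.1% up) with a median of 0.11, and the split was 1502 up and 1248 down (54.6% up) after plain quantile normalization. No gene was a DEG in opposite directions under any of these scalings. The counts and medians of the gene lists below stand against these shares of all genes (11.3% up, 6.45% down) and this median (-0.02). The share of DEGs up differed with brightness. With the genes split by signal into 10 equal bins, it was 7.13% in the dimmest bin and 20.7% in bin 3, and then dropped to 3.56% in the brightest, where 1.5% were DEGs down. Of the 11867 genes well above background on all 6 arrays, 1018 (8.58%) were DEGs up and 703 (5.92%) DEGs down. Genes known only by a Gm number or a Rik clone were 12.3% of the DEGs up, 5.04% of the DEGs down and 7.94% of the tested genes.

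Several measures of the arrays moved with the treatment. The share of signals well above background was 44.9 to 47.0% on the control arrays and 50.5 to 52.8% on the T247 arrays, the share that was positive and significant 63.4 to 67.0% and 70.2 to 72.8%, and the median local background 62 to 79 and 91 intensity units. No spot was saturated on these arrays. Their part in the results was not tested. The control arrays lay on slides 1 to 3, T247 replicate 1 on slide 4 and T247 replicates 2 and 3 on slide 5, so that slide and treatment cannot be told apart. Pearson correlations over the tested genes were 0.990 to 0.991 between control arrays, 0.988 to 0.994 between T247 arrays and 0.959 to 0.972 across the groups. Each replicate was an independent pool of embryos by the study's description. A lower signal may mean fewer cells with a transcript or less of it per cell, and these cannot be told apart in pooled embryos. The array of 2-cell control replicate 1 stood apart from its group, and the course classes, the array positions over all genes, the calls shared with the 2-cell stage and the differences from it are also given without it.

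The genes taken as markers of the labelled stage were present. All 5 markers of the 4-cell embryo (Pou5f1, Tfap2c, Klf17, Nr5a2 and Dppa5a) were well above background on all 6 arrays, and of these only Pou5f1 was a DEG. In untreated embryos Tfap2c, Nr5a2 and Dppa5a were higher at the 4-cell than at the 2-cell stage. Pou5f1 was higher at the 2-cell (13.31) than at the 4-cell stage (12.53), and Klf17 at the 1-cell (15.43) than at the 4-cell stage (14.57). Presence alone therefore does not set the stage. Of 4 oocyte markers, Gdf9, Bmp15 and Zp3 were above background and Mos was not, none was a DEG, and their summed linear signal, scaled to the 75th percentile of each array, was 8207 to 9026 in control and 7734 to 8380 after T247. The part of other cells in the results was not tested. The 7 markers of cumulus and granulosa cells were well above background on none of the 6 arrays, with a summed signal of 60.5 to 65.7 in control and 39.1 to 51.3 after T247. The 5 sperm markers summed to 215 to 242 and 266 to 312, and the 4 blood markers to 353 to 495 and 1057 to 1572. The blood sum was carried by Hba-a1, a globin chain, while Hbb-bs, the beta chain that red cells hold with it, and Ptprc, carried by leukocytes, were well above background on no array. Alas2, an enzyme of heme synthesis in red cells, was at 5.05, 6.22 and 5.71 in control and 3.78, 3.47 and 4.84 after T247 (log2 of the scaled signal), well above background on 2 control arrays and 1 T247 array. The 5 markers of the transient 2-cell programme (Zscan4a, Zscan4c, Zscan4e, Zscan4f and Zfp352) were above background on all 6 arrays and summed to 9939 to 12335 in control and 14165 to 16866 after T247.

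The 12 largest rises among genes well above background on all 6 arrays included Gata2 and Plagl1, which regulate transcription, the ligand Pth2 and the receptor Insrr. Gata2, a zinc finger factor of blood and trophoblast, had log2 signals of 4.74, 4.6 and 4.30 on the control arrays and 8.55, 9.05 and 8.18 on the T247 arrays. The groups were far apart, and Gata2 rose by an LFC of 4.04 ± 0.35 (SE), 16.5-fold (limma, adjusted p = 6.12e-08). Pth2, a neuropeptide ligand of a parathyroid hormone receptor, rose from 5.15, 5.39 and 4.97 to 9.0, 9.32 and 8.87 (LFC 3.90 ± 0.57, adjusted p = 2.17e-05). Plagl1, an imprinted zinc finger factor, rose from 4.59, 4.81 and 4.74 to 8.45, 8.90 and 7.76 (LFC 3.66 ± 0.21, adjusted p = 1.31e-09). Over the untreated stages, normalized with all 39 arrays as in every stage mean below, the mean log2 signal of Plagl1 went from 10.62 in 2-cell to 4.68 in 4-cell embryos, and after T247 it was 8.37 on that scale. The 3 other probes of Plagl1 gave LFCs of 4.24, 0.76 and 0.82.

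The rest of these rises were 8.72-fold to 12.3-fold. Insrr, a receptor kinase related to the insulin receptor, had 1 control array at 5.87 and 2 at 4.61 and 4.57, against 8.40, 8.95 and 8.55 after T247 (LFC 3.62 ± 0.88, adjusted p = 0.00240). Cfap206, a protein of cilia and flagella, rose by an LFC of 3.46, and its other probe, well above background on 1 of the 6 arrays, gave 2.08. Tsga8, a gene of the testis, was at 7.07, 7.51 and 7.76 in control and 10.63, 11.04 and 10.89 after T247 (LFC 3.4 ± 0.20). Adam21, a surface protease family member of the male germ line (3.38), Neu2, a cytosolic sialidase (3.33), Tmem132c (3.23), Magef1, of the MAGE family (3.22), Pnma2 (3.21) and Fcrls, an Fc receptor-like protein (3.12), completed the group. By the rule that chose the 12, none had a control array as high as its lowest T247 array. 1 gene with a Gm number or Rik name ranked above the 12th.

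The 12 largest falls were smaller in size than the rises, between 4.54-fold and 7.05-fold. Igbp1, a regulatory subunit of PP2A-like phosphatases, had log2 signals of 8.83, 8.97 and 8.69 in control and 6.01, 5.44 and 6.57 after T247, and fell by an LFC of 2.82 ± 0.29 (adjusted p = 3.90e-07). Vangl1, a planar cell polarity protein, was at 7.14, 7.86 and 8.55 in control and 5.07, 4.72 and 5.42 after T247 (LFC -2.78 ± 0.34, adjusted p = 2.78e-06). Cr1l (Crry), a complement regulator of the cell surface, was at 8.63, 8.52 and 8.51 against 5.61, 5.34 and 6.66 (LFC -2.68 ± 0.25, adjusted p = 1.38e-07). The rule that chose the 12 falls left no gene with overlapping groups. Smpdl3a, a phosphodiesterase of the sphingomyelinase family, was brighter, at 11.60, 11.50 and 11.40 against 9.27, 8.20 and 9.74 (LFC -2.43 ± 0.35). Cldn4, a claudin of tight junctions, had an LFC of -2.37, and its other probe gave -2.22. The others were Igsf1, an immunoglobulin superfamily protein (-2.53), Serpinb6c, a serpin (-2.41), Ly6c1 (-2.36) and Ly6a (-2.33), Aup1, a protein of lipid droplets and of protein degradation at the endoplasmic reticulum (-2.24), Mpzl2, an adhesion molecule (-2.22), and Zfp932, a zinc finger protein (-2.18). Ly6a and Ly6c1 are close copies, as are the Serpinb6 genes, and their probes may not be specific. A dim second probe of Ly6c1 gave 0.27. The second probe of Serpinb6c gave -1.22. For Zfp932, 1 of its 2 other probes gave -2.05 and the other an LFC of 1.53, so that the direction of this gene depended on the probe. In 11 of the 12 genes, all but Zfp932, the untreated course rose from the 2-cell to the 8-cell stage.

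**Figure D2:**
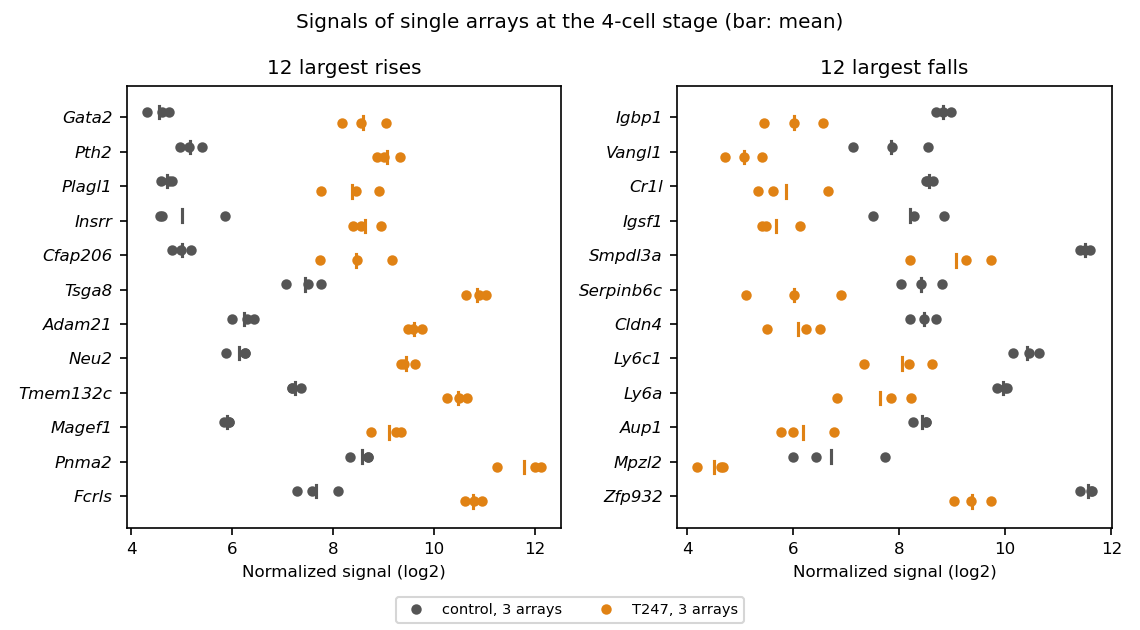
Normalized log2 signals of the 3 control arrays (grey) and the 3 T247 arrays (orange) for the 12 largest rises (left) and the 12 largest falls (right), with a vertical bar at each mean. By the rule that chose them no gene has overlapping groups, and the rises span wider gaps than the falls.

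The promoter letters of these genes are shown because the share of DEGs up differed with the CpG content of the promoter. RefSeq promoter windows of the build GRCm38.p6, from 250 bases before to 50 bases after the start, were matched by symbol to 12564 of the 15992 tested genes, the first listed start being used. The 250 bases before the start follow for the rises Gata2, Pth2 and Plagl1 and for the falls Igbp1 and Cr1l, 5′ to 3′ on the strand of the gene, with every CpG in capitals. They hold 22 CpG in Gata2, 1 in Pth2, 19 in Plagl1, 8 in Igbp1 and 5 in Cr1l.
Gata2 (chr6:88193641-88193890, plus strand): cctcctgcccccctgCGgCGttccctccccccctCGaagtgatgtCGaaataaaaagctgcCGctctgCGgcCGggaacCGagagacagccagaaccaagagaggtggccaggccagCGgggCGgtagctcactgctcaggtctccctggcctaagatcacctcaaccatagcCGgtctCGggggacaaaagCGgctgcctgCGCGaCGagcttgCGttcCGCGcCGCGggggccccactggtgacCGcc
Pth2 (chr7:45180745-45180994, plus strand): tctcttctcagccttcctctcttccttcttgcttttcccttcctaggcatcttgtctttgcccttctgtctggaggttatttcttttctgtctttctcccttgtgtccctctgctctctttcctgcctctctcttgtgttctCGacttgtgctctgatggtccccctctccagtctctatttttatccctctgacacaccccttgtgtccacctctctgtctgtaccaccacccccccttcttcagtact
Plagl1 (chr10:13090582-13090831, plus strand): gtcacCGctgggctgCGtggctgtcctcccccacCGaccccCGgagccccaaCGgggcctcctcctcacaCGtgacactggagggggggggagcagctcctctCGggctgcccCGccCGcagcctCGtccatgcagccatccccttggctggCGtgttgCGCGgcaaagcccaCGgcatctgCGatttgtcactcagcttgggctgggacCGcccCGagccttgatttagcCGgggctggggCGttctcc
Igbp1 (chrX:100494041-100494290, plus strand): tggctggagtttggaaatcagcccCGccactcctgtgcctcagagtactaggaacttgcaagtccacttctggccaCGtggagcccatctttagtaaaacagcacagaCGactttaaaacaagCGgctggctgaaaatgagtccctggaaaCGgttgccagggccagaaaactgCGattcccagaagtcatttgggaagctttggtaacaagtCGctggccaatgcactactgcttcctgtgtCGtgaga
Cr1l (chr1:195131571-195131820, minus strand): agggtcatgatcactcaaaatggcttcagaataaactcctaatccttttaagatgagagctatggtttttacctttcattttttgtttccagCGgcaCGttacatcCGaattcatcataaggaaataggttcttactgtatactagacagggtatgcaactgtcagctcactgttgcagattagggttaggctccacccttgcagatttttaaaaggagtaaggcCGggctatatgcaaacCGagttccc

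Over the 300-base windows, DEGs up had a median of 10 CpG, DEGs down 17 and all tested genes 18. Among the 1218 genes with at most 2 CpG, 21.5% were DEGs up and 5.25% DEGs down. Among the 2173 genes with over 30 CpG, 6.99% were DEGs up and 5.29% DEGs down. The share of DEGs up fell with each step of CpG between these ends, whereas the share of DEGs down stayed between 5.25 and 7.58%. Genes with few CpG were also dimmer, with a median log2 signal of 5.02 at 2 or fewer CpG and 8.85 at over 30. Among genes well above background on all 6 arrays, the shares of DEGs up at the 2 ends were 22.1 and 5.25%. A TATA box (TATAAA on either strand) stood in 13.6% of the windows of DEGs up, 10.3% of DEGs down and 9.43% of all tested genes, and a GC box (GGGCGG on either strand) in 45.3, 55.0 and 56.2%. A CCAAT box (CCAAT on either strand) stood in 43.7, 35.5 and 39.1% of the same 3 sets. CRE letters (TGACGTCA) stood in 1.65, 3.01 and 3.01%, and E-box letters (CACGTG) in 8.42, 8.40 and 9.38%. None of these motifs lies within another, and the GC box, the CRE and the E-box each contain a CpG. A match describes the letters of the window and not a bound site.

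**Figure D3:**
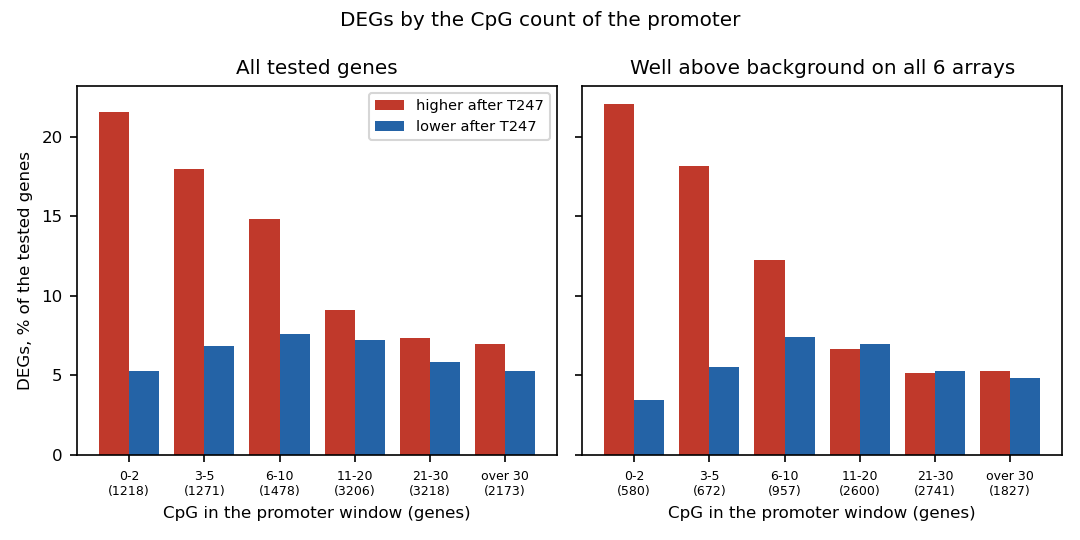
Share of DEGs up (red) and DEGs down (blue) among the tested genes, in percent, by the number of CpG in the 300-base promoter window, for all genes with a window (left) and for those well above background on all 6 arrays (right), with the number of genes under each pair of bars. The red bars drop from 21.5 to 6.99% on the left and from 22.1 to 5.25% on the right, and the blue bars have no such slope.

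The DEGs were next placed by the untreated course. Each of the 15992 genes was called up, down or level (limma over the 7 untreated stages other than the 4-cell stage, with the DEG thresholds) at 2 steps, from 1-cell to 2-cell embryos and on to 8-cell embryos. No 4-cell array entered this fit, so that the classes did not use the contrast they describe. Of the DEGs up, 990 (54.8%) belonged to genes that fall from the 2-cell to the 8-cell stage, which made up 35.0% of the tested genes. Of the DEGs down, 504 (48.8%) belonged to genes that rise over this step, which made up 27.5% of the tested genes. The reverse placements were less frequent, with 165 DEGs up among rising genes (9.14% of the DEGs up) and 204 DEGs down among falling genes (19.8% of the DEGs down). With 4-cell controls in place of 8-cell embryos at the second step, the leading shares were 53 and 38.5%. The shares of all tested genes were then 35.6 and 24.1%. This variant shares its 4-cell control arrays with the contrast, so that its placements are not independent of the DEG calls.

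Among the 9 classes, the genes that rise at the 2-cell stage and then fall, the pattern of a transient activation, held the highest share of DEGs up. Of 921 such genes, 350 (38.0%, against 11.3% of all genes) were DEGs up and 11 were DEGs down, with a median LFC of 0.76. The mirror class, down to the 2-cell stage and then up, held 225 DEGs down (16.3% of 1379 genes, against 6.45% of all genes) and 34 DEGs up, with a median LFC of -0.48. Genes level at first and then up gave 211 DEGs down (11% of 1919). Genes up and then up, the ones activated at the 2-cell stage that keep rising, gave 68 DEGs down (6.22% of 1094) and 38 up (3.47%). The class that is level at both steps, 3341 genes, had shares of 12.2% DEGs up and 4.37% DEGs down, close to those of all genes for the rises. Without 2-cell control replicate 1, the class up, then down grew to 1199 genes with 421 DEGs up (35.1%), and the class down, then up to 1629 genes with 272 DEGs down (16.7%). Among genes well above background on all 6 arrays, the shares were 38.4 and 15.8%. By the stage of the highest untreated mean, with the 4-cell stage left out, 380 of the 1155 genes that peak at the 2-cell stage were DEGs up (32.9%) and 21 were DEGs down. Genes that peak in the morula gave 109 DEGs up and 153 DEGs down of 1903 (5.73 and 8.04%).

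**Figure D4:**
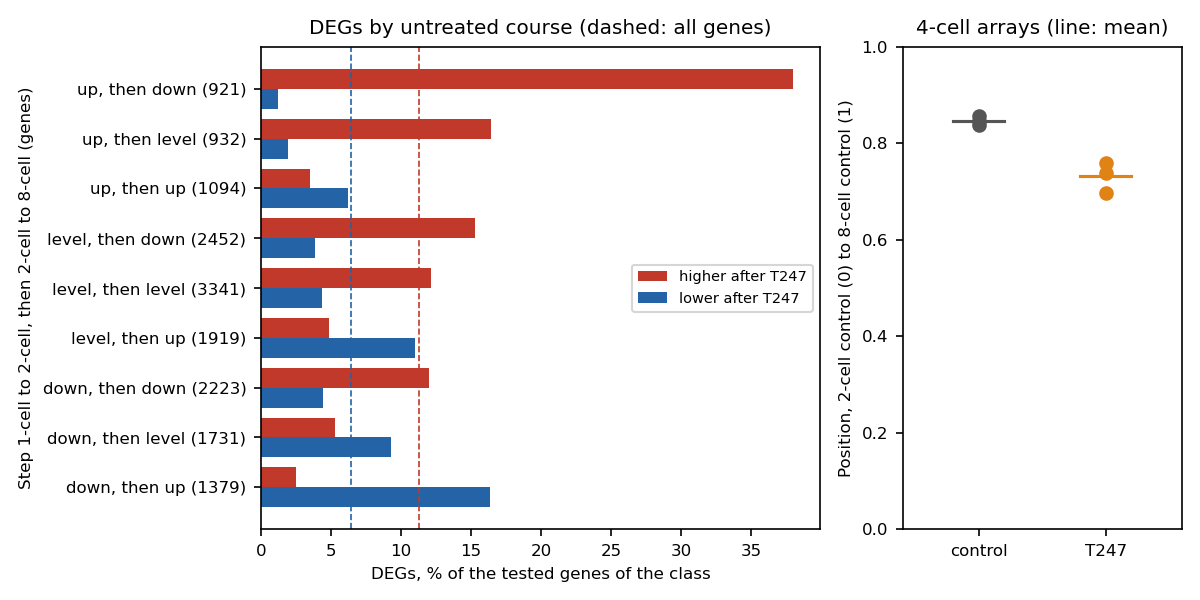
Left, share of the tested genes of each course class, in percent, that were DEGs up (red) or DEGs down (blue) after T247, with dashed lines at the shares of all genes (11.3 and 6.45%). Right, position of each 4-cell array on the line from the mean 2-cell control (0) to the mean 8-cell control (1), with a line at the group mean. The class up, then down has the longest red bar (38.0%), the class down, then up the longest blue bar (16.3%), and the 3 T247 arrays lie below the 3 control arrays.

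The arrays themselves were placed on the straight line from the mean 2-cell control (0) to the mean 8-cell control (1), over all tested genes. Control arrays were at 0.839, 0.856 and 0.847 (mean 0.847 ± 0.00864, SD, n = 3), and T247 arrays at 0.739, 0.697 and 0.760 (0.732 ± 0.0320, n = 3). All T247 arrays were nearer to the 2-cell end than any control array, by 0.115 on average, with an exact permutation p of 0.1 (two-sided), the smallest that 3 against 3 arrays can give. The difference was -0.127 without 2-cell control replicate 1, -0.0852 after quantile normalization and between -0.129 and -0.0980 with any 1 of the 6 arrays left out. Both directions of the course contributed. Over the 4392 genes that rise between the 2-cell and 8-cell stages, the median position was 0.831 ± 0.00966 in control and 0.698 ± 0.0307 after T247, and over the 5596 genes that fall, 0.888 ± 0.0115 and 0.781 ± 0.0250 (n = 3 arrays a group, exact permutation p of 0.1 for each). In both sets of genes T247 replicate 2 was the lowest and T247 replicate 3 the highest of the treated arrays.

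Relative to its mean over the 7 untreated stages other than the 4-cell stage, the median DEG up stood (log2) at 0.34 in 2-cell, -0.75 in 4-cell and -0.73 in 8-cell embryos, and at 0.81 in T247 4-cell embryos. The median DEG down stood at -1.27 in 2-cell, -0.75 in 4-cell and -0.32 in 8-cell embryos, at 0.93 in blastocysts, and at -2.02 after T247. These medians describe genes chosen for their T247 level. The treated median lay above both the 2-cell and the 4-cell median for DEGs up and below both for DEGs down. In 244 of the 1806 DEGs up (13.5%) the T247 mean lay at least 1 (log2) above the mean of every untreated stage, and in 257 of the 1032 DEGs down (24.9%) at least 1 below every one. Of these, 183 and 188 were well above background on all 6 arrays. Among all 15992 tested genes, 251 lay that far above and 272 that far below every untreated stage. The untreated 4-cell stage is 1 of these stages, and the DEG threshold already asks for an LFC of 1 in size against it. The choice of DEGs thus favoured their shares, which are no separate support.

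The 5 genes farthest above every untreated stage were Tmem132c, Adam21, Tex101, Lrfn3 and F10. Tmem132c had a highest untreated stage mean of 7.22, in 4-cell embryos, and 10.47 after T247. Tex101, a surface glycoprotein of germ cells, was at 8.08, 8.85 and 8.65 in control and 11.67, 11.94 and 11.29 after T247 (LFC 3.10 ± 0.30). F10, coagulation factor X, was at 11.89, 12.41 and 12.24 in control and 15.07, 15.27 and 14.89 after T247, an LFC of 2.90 ± 0.27 (7.44-fold, adjusted p = 1.39e-07), above a highest untreated stage mean of 12.19. The 5 farthest below every stage were Hsd17b4, an enzyme of peroxisomal fatty acid oxidation (LFC -2.16), Lancl2 (-2.12), Tsfm, a mitochondrial translation factor (3.99-fold lower), Cdkal1, a tRNA-modifying enzyme (3.99-fold lower), and Copb1, a subunit of the COPI vesicle coat (-1.96). Hsd17b4 was at 8.00, 8.04 and 7.95 in control and 5.99, 5.17 and 6.34 after T247, while its lowest untreated stage mean was 7.99, in 4-cell embryos.

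In the class up, then down, the largest rises were Gata2, Insrr and Pnma2, and its 2 named falls were Snora47, a small nucleolar RNA gene (-1.12), and Ntn3, a netrin (-1.04). In the class level, then down, Cdkn1c, the imprinted CDK inhibitor p57, rose from 9.52, 10.29 and 9.39 to 12.91, 13.23 and 11.98 (LFC 2.97 ± 0.36, adjusted p = 3.07e-06). The untreated course of Cdkn1c went down from 12.05 at the 1-cell stage to 11.46, 9.74 and 9.11 at the 2-cell, 4-cell and 8-cell stages, and T247 4-cell embryos were at 12.72. Ybx3, a cold-shock domain protein that binds RNA, fell in the same class (-1.85). The 3 largest rises of the class down, then down, among genes well above background on all 6 arrays, were Mfsd2a, a lysolipid transporter (2.61), Zbtb32 (2.44) and Izumo1r (Juno), the egg receptor for the sperm protein Izumo1 (2.43). Izumo1r was at 9.88, 10.35 and 9.88 in control and 12.39, 12.72 and 12.29 after T247, above its untreated 2-cell mean of 10.88.

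Among genes that rise from the 2-cell stage on, Havcr1, a phosphatidylserine receptor, was at 13.22, 13.46 and 13.34 in control and 11.54, 10.92 and 11.55 after T247 (LFC -2.0 ± 0.20, adjusted p = 2.66e-07). Ino80d, a subunit of the INO80 remodeler, fell by 1.91. In the same class Slc46a3, a lysosomal transporter (2.23), Mc3r, a melanocortin receptor (2.20), and Cfap206 (3.46) rose. In the class down, then up, Magef1 (3.22), Smg8, of nonsense-mediated decay (2.19), and Golt1a (2.16) rose beside the falls of Igbp1, Cr1l and Serpinb6c. Genes level at both steps included Tsga8, Adam21 and Trpm1, a cation channel (3.09, with 1.32 at its other probe), on the side of the rises and Epha7, an ephrin receptor (-1.85, with 0.69 at a probe not above background), and Vps41, of endolysosomal trafficking (-1.81), on the side of the falls.

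**Figure D5:**
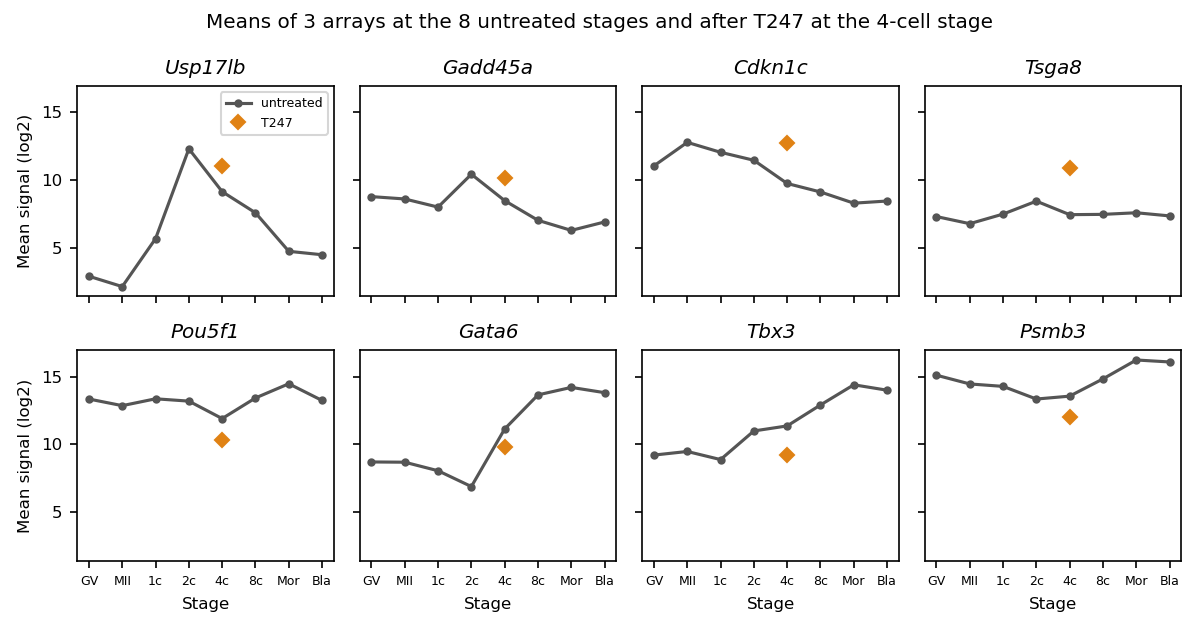
Mean log2 signal of 3 arrays at each untreated stage (grey line; GV and MII oocytes, 1-cell, 2-cell, 4-cell and 8-cell embryos, morula, blastocyst) and in T247 4-cell embryos (orange diamond) for 8 genes, normalized with all 39 arrays. For Usp17lb the diamond lies between the 4-cell and the 2-cell level, for Gadd45a near the 2-cell level, for Cdkn1c near the MII level and for Tsga8 above the whole line. For Pou5f1 and Psmb3 it lies below the whole line, for Gata6 between the earlier levels and the 4-cell level, and for Tbx3 below the 2-cell level and near the GV level.

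The transient 2-cell genes are switched on at major ZGA and silenced soon after. Of 21 tested members, 10 rose (47.6%, against 11.3% of all genes) and 0 fell (6.45% of all genes), and the median LFC was 0.76 against -0.02 over all genes. Usp17lb, of a family of deubiquitinating enzymes, was at 9.22, 9.48 and 8.70 in control and 10.97, 11.61 and 10.40 after T247 (LFC 1.86 ± 0.30, adjusted p = 6.61e-05). Its untreated mean peaked at 12.31 in 2-cell embryos and was 9.14 at the 4-cell and 7.57 at the 8-cell stage. Zscan4a, of the zinc finger cluster of the 2-cell embryo, was at 7.44, 7.91 and 6.20 in control and 9.5, 8.52 and 8.93 after T247 (LFC 1.80 ± 0.46, adjusted p = 0.00342). Arg2, the mitochondrial arginase, rose as well (1.72 ± 0.12, adjusted p = 7.13e-09), and Zscan4c did (1.76). The Zscan4 and Usp17l genes are near-identical copies, and their probes may read each other's transcripts. At the 2-cell stage itself, 0 of the 21 were DEGs up (8.74% of all genes) and 1 was a DEG down (16.1% of all genes) after T247. The median LFC there was -0.17, against -0.26 over all genes. Without 2-cell control replicate 1, Zscan4a and Zscan4c were DEGs up at the 2-cell stage (LFC 1.14 and 1.09, limma, adjusted p = 0.00825 and 0.0137). In the same fit the 2-cell LFC was -0.53 for Usp17lb and -1.28 for Arg2.

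The class I histocompatibility and peptide loading genes, which display peptides at the cell surface, had 10 rises (37.0%, against 11.3% of all genes) and 0 falls among 27 tested, with a median LFC of 0.83, which was 0.84 above that of all genes. The median was 0.49 with 7 of 22 up among genes well above background, 0.44 with 5 up after normexp background correction, 0.41 without fill-in and 0.35 with 4 of 18 up in the authors' value table. H2-T22, a nonclassical class I gene, was at 5.86, 5.61 and 5.75 in control and 7.27, 7.8 and 6.71 after T247 (LFC 1.52 ± 0.28, adjusted p = 0.000228). H2-M11 was well above background on no control array and on all 3 T247 arrays and was at least 2.48-fold higher. Tap1, the peptide transporter, was well above background on 2 of 3 control arrays (LFC 1.81, adjusted p = 0.00508). H2 genes are alike in sequence, and the share of each in these signals is uncertain. Of 46 tested homeobox and GATA factors, 7 were DEGs up (15.2%) and 3 down (6.52%), shares near those of all genes (11.3 and 6.45%), with a median LFC of 0.29, and normexp left 3 and 0. Gata2 led, and Vax2, a homeobox factor of the ventral eye, rose from 8.59, 8.96 and 8.76 to 10.79, 10.62 and 10.93 (LFC 2.01 ± 0.20). Pax6 fell from 6.84, 6.77 and 6.74 to 5.48, 5.41 and 5.44 (-1.34 ± 0.20).

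Of 36 tested lineage and pluripotency factors, 7 were DEGs down (19.4%, against 6.45% of all genes) and 2 up (5.56%, against 11.3%), with a median LFC of -0.30, which was 0.29 below that of all genes. Without T247 replicate 3, 8 were down and 4 up, and after normexp 5 and 0. Pou5f1 (Oct4), the central pluripotency factor, was at 11.73, 11.93 and 12.03 in control and 10.46, 10.11 and 10.35 after T247 (LFC -1.60 ± 0.17, adjusted p = 4.62e-07), below the mean of every untreated stage. Tbx3, a T-box factor of pluripotency and endoderm, was at 11.05, 11.32 and 11.70 against 9.40, 8.74 and 9.58 (-2.12 ± 0.24, adjusted p = 1.16e-06). Prdm14, a repressor that safeguards naive pluripotency, had an LFC of -1.67 ± 0.42. Gata6, of the primitive endoderm, was at 11.11, 11.07 and 11.21 in control and 9.90, 9.70 and 9.76 after T247 (-1.34 ± 0.09, adjusted p = 4.47e-09), on an untreated course that climbs from 6.88 at the 2-cell to 13.66 at the 8-cell stage. Sox2, the partner of Oct4, was well above background on all T247 arrays and no control array and was at least 2.76-fold higher. Tfap2a, a trophoblast factor, was well above background on 1 of 3 control arrays and all T247 arrays (LFC 1.85). In untreated embryos, Sox2 had dropped from 8.53 at the 2-cell stage to 2.61 at the 4-cell stage.

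Genes of polarity, adhesion and the Hippo pathway, which shape compaction and the first lineage choice, had 6 DEGs down (18.8%, against 6.45% of all genes) and 0 up (11.3% of all genes) of 32 tested, with a median LFC of -0.61. The DEGs down were 10 with 75th percentile scaling and 3 after normexp. Besides Cldn4, these included Amotl2, an angiomotin that holds Yap1 out of the nucleus, at 8.43, 9.05 and 8.89 in control and 7.31, 6.97 and 7.76 after T247 (-1.45 ± 0.18), and Prkci, the atypical protein kinase C of the apical domain (-1.12 ± 0.12, adjusted p = 4.59e-07). Jup, plakoglobin, was well above background on 1 control array and no T247 array, and was at least 1.44-fold lower. Genes of protein turnover and energy metabolism gave a like direction with smaller sizes. Of 61 subunits of the mitochondrial respiratory chain, 8 fell (13.1%) and 0 rose, with a median LFC of -0.51, and of 32 proteasome subunits 3 fell (9.38%) and 0 rose, with a median of -0.57, against 6.45% of all genes down and a median of -0.02. With 75th percentile scaling 13 and 7 fell, and without T247 replicate 3, 11 and 5. Ndufa12, of complex I, was at 12.76, 12.82 and 12.83 in control and 11.34, 10.99 and 11.83 after T247 (-1.42 ± 0.21), and Uqcrb, of complex III, fell by 1.33. Psmb3, a subunit of the proteasome core, was at 13.52, 13.57 and 13.58 against 12.02, 11.73 and 12.36 (-1.52 ± 0.25), below every untreated stage. The medians of these lists stood below those of bright genes in general, which were -0.14 in the brightest of the 10 bins and -0.19 in the next. Ribosomal proteins, 85 genes with a median of -0.32, had a single DEG, Rps21 (1.14), and 50 genes of ribosome biogenesis had 1 as well, Utp14a (1.72).

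Regulators of the cell cycle and of growth arrest contained rises and falls. Of 31 cyclins, CDKs and CDK inhibitors, 7 rose (22.6%, against 11.3% of all genes) and 2 fell (6.45%, as of all genes). Only 4 rose without T247 replicate 1 or any 1 control array, and 3 without T247 replicate 2, after normexp or without fill-in. Cdkn1c was the largest, Cdkn2a, the locus of the p16 and p19 inhibitors, had an LFC of 1.52 ± 0.53 (adjusted p = 0.0246) with -0.51 at its other probe, and Ccna1, the germ line cyclin, was at least 1.54-fold higher. Cdkn1b, the inhibitor p27, fell by 1.20, and Ccnd1, cyclin D1, by 1.01 (adjusted p = 0.0464), a call that was lost in 12 of 22 alternatives. Of 27 p53 targets, 2 rose (7.41%, against 11.3% of all genes) and 2 fell (7.41%, against 6.45%). Gadd45a, a stress sensor, rose from 8.61, 8.68 and 8.13 to 10.11, 10.57 and 9.71 (1.66 ± 0.17, adjusted p = 3.17e-07), Sesn2, of the sestrins, rose (1.22), and Perp (-1.82) and Polk (-1.27) fell. The groups of Polk overlapped. Of 40 spindle genes only Ttk, the Mps1 kinase of the spindle checkpoint, was a DEG (-1.05), a share of 2.5% against 17.7% of all genes. Of 22 genes known to answer to HDAC inhibitors in somatic cells, 3 rose (Clu, Klf6 and Gadd45b, 13.6%) and 1 fell (Cldn4, 4.55%), near the shares of all genes (11.3 and 6.45%), and only 1 rose without control replicate 2 or T247 replicate 2. Gadd45b, like Gadd45a a stress-induced gene, was at 11.50, 11.71 and 11.46 in control and 13.18, 13.47 and 12.77 after T247 (1.58 ± 0.14). Of 27 neuronal genes bound by REST, 3 rose (Chrm4, Nefh and Elavl4, 11.1%) and 1 fell (Grin1, 3.70%), shares no higher than those of all genes. The median LFC of this list lay 0.44 above that of all genes, and 0.17 above it after normexp. The median LFCs of the p53 targets, the HDAC inhibitor responders and the maternal transcripts lay 0.08, 0.03 and 0.04 above that of all genes.

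Among chromatin regulators, the share of DEGs was 20% of the HDAC genes (2 of 10) and 23.1% of the DNA methylation genes (3 of 13), against 17.7% of all genes, and 6.90% of the corepressor, 4.35% of the acetyltransferase and bromodomain and 3.57% of the polycomb genes. The median LFCs of the last 3 lists lay 0.17, 0.38 and 0.40 below that of all genes, and 0.15, 0.18 and 0.21 below it with the mean of the probes of a gene. Those of the HDAC and DNA methylation genes lay 0.29 above and 0.11 below it. Of the HDAC genes, Hdac7, a class II enzyme, rose from 4.91, 5.52 and 5.70 to 7.04, 6.92 and 7.03 (1.62 ± 0.20, adjusted p = 4.03e-06). Its LFC had been 2.65 in 1-cell and 3.10 in 2-cell embryos. Hdac3 itself was dim, at 3.45, 5.14 and 4.33 in control and 3.27, 3.54 and 3.74 after T247, well above background on 1 control array only, and the difference was not significant (adjusted p = 0.113). Hdac1 had 15.08, 15.04 and 15.10 against 15.10, 15.19 and 15.12 (LFC 0.07, adjusted p = 0.823). Hdac4 (LFC 0.56, adjusted p = 0.0112) and Hdac6 (LFC 0.35, adjusted p = 0.0268) were no DEGs by size, and Hdac2, Hdac5, Hdac8 and Hdac10 did not pass the test. Hdac9 passed the DEG thresholds, a call lost in 5 of 18 alternatives, but was well above background on 1 T247 array alone, and no fold is given. Of 29 corepressor subunits Rcor3 (-1.06) and Mta3 (-1.05) fell, of 23 acetyltransferases and bromodomain readers Crebbp rose (1.12, with -0.32 at its other probe), and of 28 polycomb subunits Pcgf3, well above background on 1 control array alone, was at least 1.03-fold lower. Among 13 genes of DNA methylation, Dnmt3l, the cofactor of de novo methylation, fell from 10.25, 10.46 and 10.21 to 8.99, 9.10 and 9.09 (-1.25 ± 0.13), Dnmt3b, a de novo methyltransferase, fell by 1.01 (-0.37 and -1.13 at its other probes), and Tdg, a glycosylase of demethylation, was at least 1.18-fold higher. Of 48 maternal transcripts, Sohlh1, an oocyte transcription factor well above background on 2 control arrays (2.77), and Dazl, an RNA-binding germ cell protein (1.25), rose and Oosp1 fell (-1.38). These were shares of 4.17% up and 2.08% down, below the 11.3 and 6.45% of all genes.

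In the marker lists of other cells, 4 of 7 tested blood genes rose, Hba-a2 (2.12), Cd52 (2.10), Hba-a1 (1.89) and Cd3e (1.22), and 1 fell. These shares were 57.1 and 14.3%, against 11.3% up and 6.45% down of all genes. Hba-a2 was at 9.64, 9.98 and 9.66 in control and 11.83, 12.20 and 11.62 after T247. The 2 globin genes are near-identical and their signals cannot be told apart. Of 10 cumulus and granulosa cell genes tested, 2 rose (20%, against 11.3% of all genes) and 0 fell. The 2 were Cd44, the hyaluronan receptor (2.25), and Areg, an EGF receptor ligand at least 1.18-fold higher. Of 9 sperm genes 1 rose, a share near that of all genes (11.1 and 11.3%), and 0 fell. It was Prm1, a protamine well above background on 2 control arrays (1.01).

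Embryos exposed in the same way had also been read at earlier stages. Those arrays entered the normalization and the shared estimate of the spread, but not the 4-cell means. The earlier T247 arrays lay on slide 4, with 4-cell T247 replicate 1, and their controls on slides 1 to 3. Slide and treatment cannot be told apart at these stages either, nor in what the stages share. At the 1-cell stage 900 genes (5.63%) were DEGs up and 149 (0.932%) DEGs down after T247, and at the 2-cell stage 1397 (8.74%) and 2568 (16.1%). Of the 1806 DEGs up at the 4-cell stage, 533 were also up at the 2-cell stage (29.5% of the 4-cell and 38.2% of the 2-cell DEGs up), 398 at the 1-cell stage (22 and 44.2%), and 241 at all 3. A further 1029 were DEGs at the 4-cell stage only. Of the 1032 DEGs down, 149 were down at the 2-cell stage (14.4 and 5.80%) and 26 at the 1-cell stage. Opposite calls were made for 83 genes up at the 4-cell and down at the 2-cell stage and 61 the other way, for 186 and 101 without 2-cell control replicate 1, and for 39 and 104 with 75th percentile scaling, so that the larger side depended on the scaling. Without 2-cell control replicate 1 the 2-cell stage had 1795 DEGs up and 3255 down, of which 550 and 184 were shared with the 4-cell stage in direction. The median LFC of the 4-cell DEGs up was 0.35 at the 1-cell and 0.46 at the 2-cell stage, against 0.00 and -0.26 over all genes, and that of the DEGs down -0.17 and -0.36.

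Genes with a rise at every stage included Pnma2 (LFC of 2.29, 2.50 and 3.21 at the successive stages from 1-cell to 4-cell), F10 (2.91, 3.07 and 2.90), Trpm1 (2.23, 2.80 and 3.09) and Neu2 (2.22, 1.35 and 3.33). The LFC of Vax2 was 4.15 at the 2-cell and 2.01 at the 4-cell stage (limma, adjusted p of the difference 1.01e-05), and that of Gata2 5.30 and 4.04 (adjusted p of the difference 0.0490). Without 2-cell control replicate 1 the 4-cell minus 2-cell difference was -2.40 for Vax2 (adjusted p = 1.14e-07) and -1.87 for Gata2 (adjusted p = 6.96e-05). Plagl1 (-0.26 and 0.42 before the 4-cell stage), Cdkal1, Tsfm and Gata6 differed by less than 1 in size at both earlier stages. Among DEGs down, Havcr1 was lower at the 2-cell (-2.25) and at the 4-cell stage, and Cr1l too (-1.41).

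The difference between the T247 effects at the 4-cell and 2-cell stages was tested by itself (limma interaction, adjusted p below 0.05). It was significant for 6831 genes (42.7%), 4939 with a higher and 1892 with a lower LFC at the 4-cell stage. Of the 1806 DEGs up, 964 differed in their own direction and 42 in the other, and of the 1032 DEGs down, 593 and 6. These DEGs were chosen for their 4-cell LFC, which also enters the difference. The choice thus favoured their own direction, and these counts are no separate support. The median of all genes at the 2-cell stage was -0.26, which other scalings brought to -0.04 and -0.06, and the split became 3328 higher and 3233 lower after quantile normalization. Without 2-cell control replicate 1 it was 6012 higher and 3418 lower. Igfbp2, a carrier of insulin-like growth factors, was at 5.63, 5.93 and 5.50 in 4-cell controls and 8.57, 8.85 and 8.64 after T247 (LFC 3.00 ± 0.54), whereas its LFC at the 2-cell stage was -2.33. Fzd2, a Wnt receptor, rose by 3.07 at the 4-cell stage with -1.38 at the 2-cell stage. In the other direction Sgk1, a growth factor-regulated kinase, was at 13.11, 13.45 and 13.42 in control and 11.62, 11.48 and 12.19 after T247 (-1.56 ± 0.23) and had an LFC of 2.39 at the 2-cell stage. Tagln2, an actin-binding protein (-1.76 against 2.29), and Plekhf1, an endosomal protein (-1.46 against 3.18), likewise had LFCs of opposite sign at the 2 stages. The 4-cell minus 2-cell differences of these 5 genes, in the same order, were 5.33, 4.45, -3.96, -4.06 and -4.64, and 6.36, 5.11, -4.20, -4.07 and -4.51 without 2-cell control replicate 1. Igfbp2 and Fzd2 rise at the 2-cell stage and then fall in untreated embryos, and Sgk1, Tagln2 and Plekhf1 rise from the 2-cell to the 8-cell stage.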

How the data were processed

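Total RNA of pooled oocytes or embryos was hybridised to 1-colour Agilent mouse arrays. The deposited scanner files hold background-subtracted processed signals, linear intensities, from Feature Extraction 10.7.1.1 per the file headers (9.5.1.1 per the labels). The authors' value table holds log2 values of 19143 probes, which matched the processed signals with correlations of 0.998 to 0.9999 per array (column medians 8.71 to 10.5), and was used as an alternative.

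After the study's methods, outlier spots were removed, a probe was kept if 1 or more arrays of every condition, 8 in all from the 1-cell to the 4-cell stage (control, T247 and MGCD0103), gave a positive, significant signal, missing values were filled in by regression (4.47% of the values on the 6 arrays), the brightest probe of each gene was kept and log2 values were smooth quantile normalized. Smooth quantile normalization and the fill-in were rewritten here. Probes were named through RefSeq by accession (27318), symbol (3527) or synonym (553), and 24283 stayed unnamed. limma 3.58.1 in R 4.3.3 fitted the 24 arrays (median 18.7 degrees of freedom) with Benjamini-Hochberg adjustment. On simulated data with 200 changed genes of 15992, 98.5% were recovered and 4 unchanged genes were called. The planted LFCs were all at least 2 in size, with independent noise and no slide effect. Recovery of smaller changes and false calls from slides were therefore not measured. The number of arrays limits the precision. The median standard error of an LFC was 0.21.

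Groups were taken from the labels. Named genes were the 12 largest rises and 12 largest falls well above background on all 6 arrays without overlap and with a proper gene name, up to 4 DEGs per list and direction and the HDAC genes, the 3 largest per course class and direction, the 5 farthest beyond every stage, the 5 largest changes from the 2-cell stage and the 5 brightest probes outside the filter. Members, lists and tests were chosen with earlier results of these data known. The fold "at least" for a group not well above background sets it at the lowest signal that was well above background on each array. Alternatives covered scaling, background correction, detection filters, fill-in, probe choice, arrays in the fit, slide, replicate number, array weights and each array left out. Scaling to the 75th percentile of the tested genes was added after the data were seen. Some genes of the lists are not reported here.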

Additional observations from a re-analysis of the deposited data

Results flagged for a closer look

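Outside the detection filter, 161 probes of 158 genes were well above background on all 3 T247 arrays and on no control array at the 4-cell stage, and 15 probes showed the reverse, out of 9871 such probes. Of the 161, 31 were not well above background on any untreated array of the series, and 123 were on some 1-cell or 2-cell T247 array. These earlier T247 arrays all lay on slide 4, which held no control. The brightest were Rufy4 (processed signal 3.41, 5.83 and 5.88 in control and 381.5, 425.1 and 253.2 after T247), Gipr, the receptor of the gut hormone GIP (187, 254 and 165 after T247), Tnfaip8l1, Ldc1 and Eppk1. In the reverse set the brightest were Pdzd3 (90.6, 135 and 133 against 16.1, 10.8 and 15.3), Sall1, a zinc finger factor (53.4, 66.7 and 70.5 against 8.03, 6.09 and 5.45), Mdfic, Nat9 and Zfp275. No fold or test was computed for these probes.

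The T247 effect differed between the 4-cell and the 2-cell stage (limma, difference of the LFCs, 4-cell minus 2-cell) most for the following genes. It was higher at the 4-cell stage by 5.33 for Igfbp2, 5.32 for Eid2, 4.64 for Cd24a, 4.6 for Tssk6 and 4.45 for Fzd2. Without 2-cell control replicate 1 these differences were 6.36, 6.23, 5.63, 6.38 and 5.11. Eid2 and Tssk6 were no DEGs at the 4-cell stage itself (adjusted p = 0.139 and 0.339). The difference was -5.47 for Igsf1, -4.86 for Dynap, -4.64 for Plekhf1, -4.06 for Tagln2 and -3.96 for Sgk1, and without 2-cell control replicate 1 -5.05, -5.19, -4.51, -4.07 and -4.20.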

How the results depend on the processing

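Of 3093 values for the 146 named genes over 22 alternatives, 3088 kept their sign, and 213 of the 3093 no longer passed the thresholds. The other 5 were of Hdac1 and Hdac2, which were not DEGs. The calls lost in the most alternatives among genes named above were those of Ccnd1 (12), Dnmt3b, Dynap and Klf6 (9), and Prm1 and Snora47 (8). Mta3 and Pcgf3 (7) and Cdkn2a, Clu, Ntn3 and Tdg (6) followed. All of these calls were also lost with at least 1 array left out. Conversely, 6 values passed the thresholds only in an alternative, 3 of Hdac3 (of 19) and 3 of Tssk6 (of 20). The number of DEGs was 1048 (674 up, 374 down) with normexp background correction, 1820 (1059 up) over genes well above background on all 6 arrays and 1497 (848 up, 649 down) with the value table of 10830 genes, where fewer genes were tested in the last 2. Leaving out each array in turn gave 2423 to 3243 DEGs, 1633 to 1962 up and 790 to 1281 down, with both ends set by T247 replicates 2 and 3. The position differed by -0.129 to -0.0980 in the same way. With the replicate block, 2713 genes were DEGs (1661 up, 1052 down) against 2719 in the 6 arrays without it. Same-numbered arrays deviated with correlations of -0.0316, 0.0132 and 0.0231, and differently numbered ones with -0.0700 to 0.0555. Whether same-numbered pools were handled together cannot be told from these values. Slide as a random block gave 2764. The share of DEGs up that fall from the 2-cell to the 8-cell stage was 48.7% with 75th percentile scaling. It was 57.3% without 2-cell control replicate 1 and 37.9% for steps of at least 2. In the same order, 30.4, 35.1 and 23.3% of all genes fell. The share of DEGs down that rise was 53.3% with 75th percentile scaling. It was 38.5% from the 2-cell to the 4-cell control, whose arrays the contrast shares. Steps of at least 2 gave 33.7%, and genes well above background 62.0%. The shares of all genes that rise in these settings were 33.5, 24.1, 15.4 and 34.5%. With 75th percentile scaling, 378 DEGs lay above every stage, and the interaction with the 2-cell stage gave 2937 higher and 3093 lower. Its number lower was 3233 after quantile normalization and 3418 without 2-cell control replicate 1. The cause of these moves was not tested. For dim genes the signal over background limits the fold.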
